A study of Mus musculus with 6 samples.

Results

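Among the genes measured by strand-specific RNA-seq of mouse embryonic ovaries, 8 genes of the interstitium and of the vessel wall were followed across control and panobinostat (PB)-exposed ovaries. These were the platelet-derived growth factor receptors Pdgfra and Pdgfrb, the transcription factors Tcf21 and Nr2f2, the matrix proteoglycans Dcn and Lum, the smooth muscle actin Acta2 and the signalling regulator Rgs5. They were chosen by name, as genes used to recognise interstitial and perivascular cells, and were found by the gene name that the deposited comparison table gives to each transcript. The 8 genes are among 35974 gene names, and comprised 24 of the 114412 transcripts, of which 23 had at least 1 count.

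RNA was taken at E15.5 from ovaries of C57Bl6j embryos, with 3 control pools and 3 PB pools as biological replicates. PB inhibits histone deacetylases, the enzymes that remove acetyl groups from histones. The dams of the PB pools received 5 mg/kg by gavage from E6.5 on, given per day in the sample annotation and on alternate days in the methods of the study, and those of the control pools received the DMSO and water in which PB was given. Each library is a pool of whole ovaries, of 4 embryonic ovaries according to the extraction protocol of 6 to 8 according to the series design and of at least 8 according to the methods of the study, and no transgene or cell sorting was involved. The series design also words the control libraries as those of exposed mice, whereas the titles and the treatment field of the samples label them as controls, and the groups follow these labels.

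The fetal ovary holds germ cells, the pregranulosa cells that will surround them, and an interstitium of fibroblast-like stromal and perivascular cells in which the vessels run. Stromal progenitors carry PDGF receptors on their surface, receive PDGF from epithelial and endothelial neighbours and lay down a collagen matrix that is coated by small leucine-rich proteoglycans. Pericytes and smooth muscle cells, called mural cells, sit on the vessels, contract through smooth muscle actin, and are recruited there by PDGF-B from the endothelium acting on PDGFRB.

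The deposited counts summed to between 97165644 and 125985399 per pool, and the counts of all transcripts with the same gene name were added up to a gene level. Levels are given as CPM, which scales each library to the same total after TMM correction. A level of 3 counts, taken as the floor of detection, equals 0.0257 to 0.0319 CPM, depending on the pool, and covers counting error only. The markers of the labelled tissue were present in every pool, with summed levels of 1081 to 1233 CPM for 7 pregranulosa genes and 531 to 956 CPM for 7 germ cell genes. Pools of a group varied with a biological coefficient of variation of 20.9% for gene sums and 98.4% for transcripts.

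None of the 8 genes was called as different between PB-exposed and control ovaries at an FDR of at most 0.05 and an FC of at least 2 in edgeR's quasi-likelihood test, and DESeq2 also called 0 of the 8. Over all 19435 genes tested, edgeR called 3, which is 0.0154%, and DESeq2 called 11 of 20392, which is 0.0539%. An unadjusted p-value under 0.05 was found for 1 of the 8 genes, Acta2, against 4.46% of all genes tested. The groups of pools did not overlap for 1 of the 8, again Acta2, against 10.7% of all genes tested. The estimates lay above 0 for 4 genes and below 0 for 4, with a median log2 FC of -0.04 against 0.00 over all genes tested. The 95% intervals of all 8 genes lay within a 2-fold change in either direction, and the widest, that of Lum, reached a log2 FC of -0.80. In such whole-organ pools, fewer cells of a type and less RNA per cell cannot be told apart. The p-values weigh the difference between the groups against the spread between pools.

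**Figure D1:**
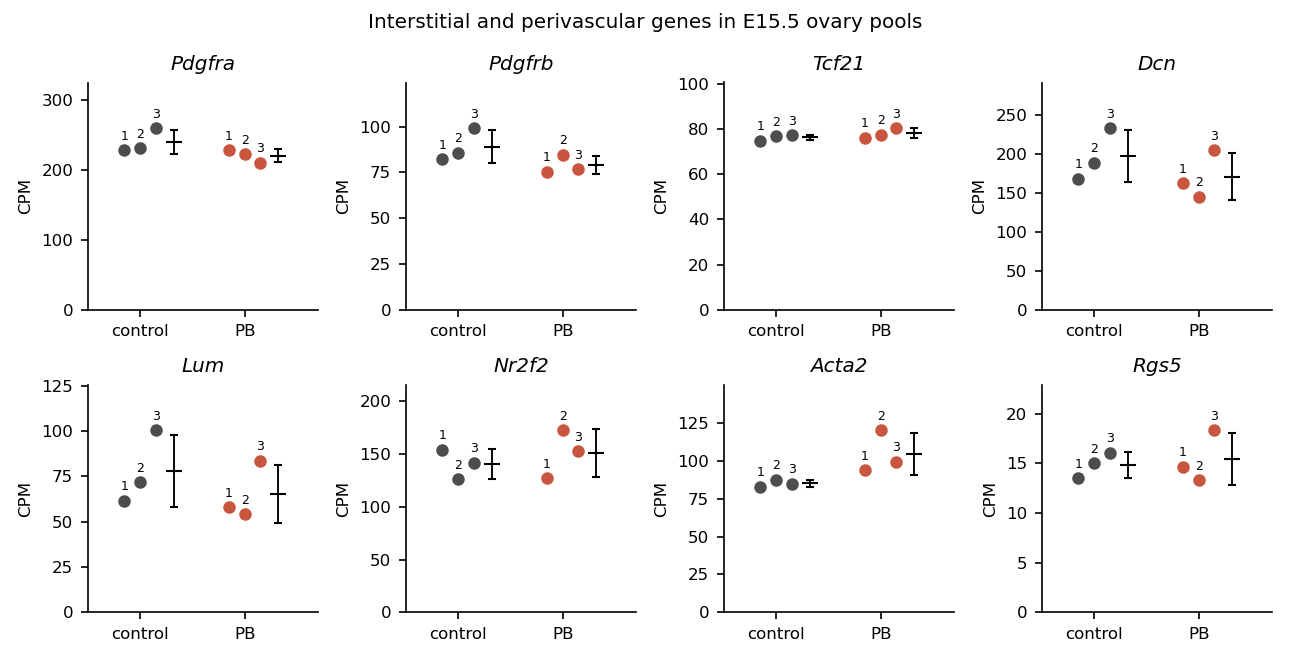
Level of each of the 8 genes (CPM, y axis from 0) in the control pools (grey) and the PB pools (red), numbered by pool, with the mean and SD of each group (n = 3) beside the points. Acta2 lay between 82.7 and 87.4 CPM in control and between 93.7 and 119.8 CPM in PB, whereas the groups overlapped for the other 7 genes.

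Compared per kilobase of exon, Dcn was the most abundant of the 8 transcripts in the ovary, with 97.3 ± 16.9 CPM per kb (SD over the 6 pools). Tcf21 followed with 62.3 ± 1.5 CPM per kb, and both gene ranges stood clear of each other and of the next gene. Acta2, Pdgfra, Lum and Nr2f2 came next at 37.0 ± 5.4, 35.0 ± 2.5, 34.5 ± 8.5 and 34.0 ± 3.8 CPM per kb. The order among these 4 genes is within their spread, because each neighbour was the higher of its pair in only 3 or 4 of the 6 pools. Pdgfrb was lower, at 15.6 ± 1.6 CPM per kb, and Rgs5 was the least abundant at 3.70 ± 0.46 CPM per kb, with Pdgfrb 4.21-fold above it. All other genes, Acta2 of the vessel wall among them, were measured at levels per length above those of Rgs5 in all 6 pools.

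Tcf21 encodes a basic helix-loop-helix factor of gonadal mesenchyme, and it was the steadiest of the 8 genes. The gene lies at chr10:22817263-22820128 on the minus strand (mm10) and has a single transcript in the deposited annotation. It was measured at 74.8, 76.8 and 77.3 CPM in control ovaries and at 76.2, 77.5 and 80.5 CPM in PB-exposed ovaries. All 6 pools lay within a 1.07-fold range, and 3.57% of the genes tested had a smaller spread within groups. The estimated log2 FC was 0.03 (SE 0.045, edgeR FDR = 0.907), with a 95% interval of the FC from 0.949 to 1.10.

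Nr2f2 (COUP-TFII), a nuclear receptor of stromal and steroidogenic progenitors, varied more between pools. It lies on the minus strand at chr7:70309081-70366746. Its levels were 154, 126 and 142 CPM in control and 127, 172 and 153 CPM in PB. The highest value was that of PB 2, and the lowest 2 were those of control 2 and PB 1, so that the groups overlapped. The log2 FC was 0.10 (SE 0.12, edgeR FDR = 0.905).

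Part of the spread of Nr2f2 lay in transcripts that StringTie had assembled from these reads and that are not in RefSeq. The main RefSeq transcript NM_009697.3 held 76.8% of the counts of the gene and the longer-reaching NM_183261.3 held 13.7%. Of the assembled transcripts, MSTRG.16513.6 held 2439 counts in control 1 and at most 177 in any other pool. MSTRG.16513.5 held 2252 counts in PB 2 and at most 13 elsewhere, and MSTRG.16513.4 held 2649 counts in PB 3 and at most 1 elsewhere. Each of these 3 transcripts was thus filled mainly by 1 pool. Together the assembled transcripts took 16.1%, 2.13% and 0.845% of the counts of Nr2f2 in control and 0.784%, 13.7% and 15.9% in PB. With RefSeq transcripts only, Nr2f2 was measured at 129, 123 and 141 CPM in control and 126, 149 and 128 CPM in PB, and the log2 FC was 0.03. The assembled transcripts overlap the exons of NM_009697.3, so that leaving them out can also leave out reads of shared exons. The share of NM_009697.3 was 72.1%, 84.7% and 82.0% in control and 82.2%, 74.7% and 68.5% in PB.

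Pdgfra, the receptor for PDGF-A and PDGF-C on stromal progenitors, was measured at 228, 231 and 259 CPM in control ovaries and at 228, 222 and 210.1 CPM in PB-exposed ovaries. Control 3 was the highest pool and PB 3 the lowest, and PB 1 lay between control 1 and control 2. This gave a log2 FC of -0.12 (SE 0.064, edgeR FDR = 0.888), and the 95% interval of the FC ran from 0.828 to 1.02. The gene lies at chr5:75151400-75198211 on the plus strand.

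Pdgfrb, the receptor for PDGF-B on mural and stromal cells, was measured at 82.3, 85.7 and 99.3 CPM in control and at 75.5, 84.7 and 76.9 CPM in PB. Control 3 was again the highest pool, and PB 2 lay within the control range. A log2 FC of -0.17 was obtained (SE 0.086, edgeR FDR = 0.888), and the 95% interval of the FC ran from 0.769 to 1.02. Per kilobase, Pdgfra exceeded Pdgfrb by a ratio of 2.21 ± 0.063 (SD, n = 3) in control and 2.30 ± 0.17 (SD, n = 3) in PB, so that the balance of the receptors overlapped between the groups. Both receptors had their highest level in control 3, and the summed level of 8 endothelial genes was also highest there, at 416 CPM against 359 to 382 CPM in the other pools.

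Of the PDGF ligands, all 4 were measured and 0 were called in edgeR, with a median log2 FC of 0.06 against 0.00 over all genes tested. In edgeR, 1 of the 4 (Pdgfb) had an unadjusted p-value under 0.05, against 4.46% of all genes tested. The groups did not overlap for 2 of the 4, against 10.7%. Pdgfb, the endothelial ligand of PDGFRB, was measured at 12.2, 12.7 and 13.9 CPM in control and at 10.97, 11.8 and 10.5 CPM in PB. Its groups did not overlap, and the log2 FC was -0.22 (SE 0.083, edgeR FDR = 0.888). Pdgfa, a ligand of PDGFRA made by epithelial cells, was measured at 32.1, 32.1 and 31.0 CPM in control and at 33.5, 34.3 and 33.6 CPM in PB, also without overlap, with a log2 FC of 0.09 (SE 0.048, edgeR FDR = 0.888). With RefSeq transcripts only, however, the estimate for Pdgfa was -0.41 (edgeR FDR = 0.924), so its direction turned with that choice. Pdgfc and Pdgfd gave log2 FCs of 0.08 and 0.03.

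The endothelial genes, whose cells supply PDGF-B, had estimates below 0 for 7 of 8 genes, with a median log2 FC of -0.15, and 0 of the 8 were called. Egfl7, an angiogenic factor secreted by endothelium, was measured at 19.5, 20.1 and 20.5 CPM in control and at 15.7, 16.9 and 17.2 CPM in PB (log2 FC -0.27, edgeR FDR = 0.888), with an unadjusted p-value under 0.05. Such a p-value was found for 2 of the 8 endothelial genes, against 4.46% of all genes tested. The groups did not overlap for 2 of these 8 genes, against 10.7%. Their summed level was 382 to 416 CPM in control and 359 to 382 CPM in PB, and none was at 0. The part of endothelial RNA in the values of Pdgfb and Pdgfrb was not tested.

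At the level of transcripts, 51227 were tested, among them 17 of the 24 transcripts of the 8 genes. None of these 17 was called in edgeR, which called 0.0332% of all transcripts tested. DESeq2 called 0 of the 18 transcripts of these genes to which it gave an adjusted p-value, and called 1172 of 63278 transcripts, which is 1.85%, over the whole table. An unadjusted p-value under 0.05 was found for 2 of the 17, against 3.56% of all transcripts, and the same number had groups without overlap, against 9.95%. These were the main transcript of Acta2 and a minor transcript of Pdgfra.

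The minor transcript of Pdgfra, NM_001083316.1, starts at a first exon of its own (chr5:75156166-75156349), which lies 3875 bases downstream of the first exon start of the main transcript NM_011058.2, and the other 22 of its 23 exons are the same. Its counts were 2014, 3130 and 2388 in control and 1824, 1661 and 1555 in PB. This was 9.01%, 11.6% and 9.78% of the gene in control and 8.08%, 7.31% and 6.37% in PB, and every PB pool lay below every control pool. The log2 FC was -0.60 (SE 0.18, edgeR FDR = 1.00), which corresponds to an FC of 0.662 (95% interval 0.482 to 0.908). The main transcript NM_011058.2 carried 89.5% of the counts and had a log2 FC of -0.07 (SE 0.066, edgeR FDR = 1.00). StringTie divides the reads of shared exons among transcripts, so that the difference between these transcripts rests on reads that touch the first exon.

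The transcripts of Pdgfrb differ even less, as NM_001146268.1 and NM_008809.2 share 22 of 23 exons exactly, and their exon 10 starts 3 bases apart. NM_001146268.1 took 42.3%, 59.4% and 30.7% of the counts of Pdgfrb in control and 28.1%, 37.0% and 25.2% in PB. The shares moved by more between control pools than between the group means, which were 44.1% ± 14.4 (SD, n = 3) and 30.1% ± 6.1 (SD, n = 3). The log2 FC of NM_001146268.1 was -0.69 (SE 0.29, edgeR FDR = 1.00) and that of NM_008809.2 was 0.14 (SE 0.26, edgeR FDR = 1.00). For the remaining genes the division mattered little, since 1 transcript held between 99.6% and 100% of the counts of Acta2, Dcn, Lum, Rgs5 and Tcf21.

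**Figure D2:**
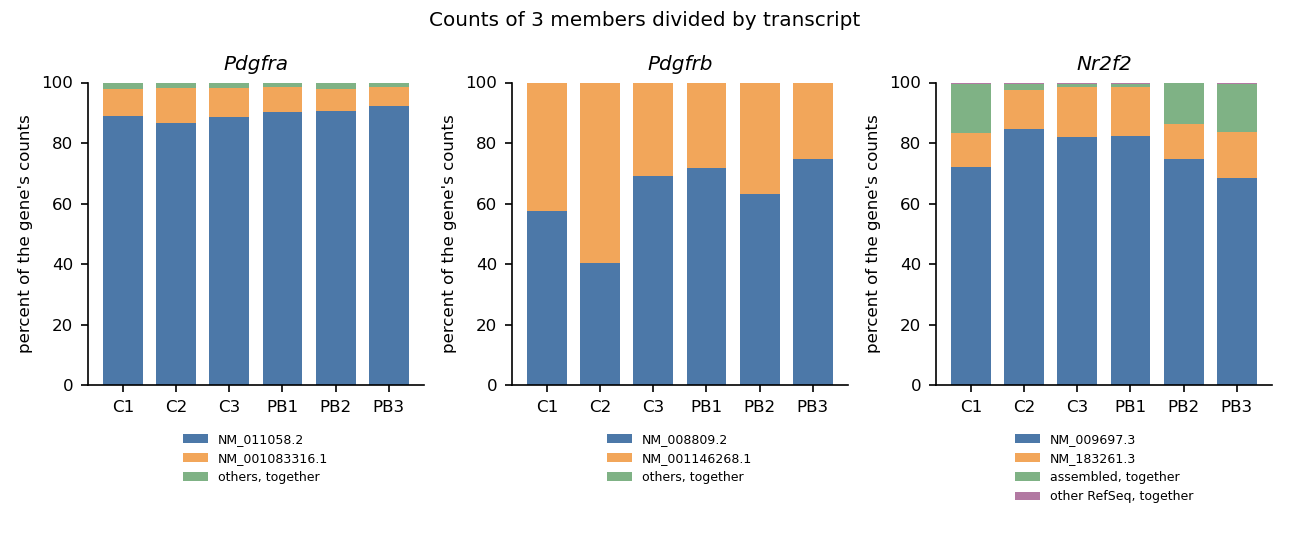
Share of the counts of Pdgfra, Pdgfrb and Nr2f2 (percent, stacked to 100) that each transcript held in the control pools (C1 to C3) and the PB pools (PB1 to PB3). The minor Pdgfra transcript lay between 9.01% and 11.6% in control and between 6.37% and 8.08% in PB, the 2 main Pdgfrb transcripts shifted from pool to pool, and assembled transcripts of Nr2f2 appeared mainly in C1, PB2 and PB3.

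Dcn (decorin) and Lum (lumican) encode proteoglycans that bind collagen fibrils, and they are neighbours on the plus strand of chromosome 10. Dcn spans chr10:97479500-97518163, and Lum spans chr10:97565501-97572703, starting 47338 bases further on. Kera and Epyc, other small leucine-rich proteoglycans, follow at chr10:97606955-97613688 and chr10:97644068-97681900.

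Dcn was measured at 168, 189 and 233 CPM in control ovaries and at 162, 145 and 204 CPM in PB-exposed ovaries. Lum was measured at 61.6, 72.0 and 100.4 CPM in control and at 58.1, 54.1 and 83.7 CPM in PB. For both genes, control 3 was the highest pool, PB 3 the second highest and PB 2 the lowest, and the groups overlapped. The range over the 6 pools was 1.60-fold for Dcn and 1.85-fold for Lum, and 82.7% and 92.0% of the genes tested had a smaller spread within groups.

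The log2 FC was -0.20 for Dcn (SE 0.16, edgeR FDR = 0.888) and -0.26 for Lum (SE 0.23, edgeR FDR = 0.888). The 95% interval of the FC ran from 0.664 to 1.14 for Dcn and from 0.573 to 1.22 for Lum. Without control 3 the log2 FCs were -0.07 and -0.04, and without PB 3 they were -0.35 and -0.47. The ratio of Dcn to Lum per kilobase was 3.00, 2.88 and 2.55 in control and 3.07, 2.95 and 2.69 in PB, and was lowest in pool 3 of either group.

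Kera, although near the limit for expressed genes, had its highest levels in the same pools, with 0.366, 0.515 and 1.90 CPM in control and 0.343, 0.342 and 0.757 CPM in PB. Bgn (biglycan), a proteoglycan encoded elsewhere, was nearly level at 224, 238 and 247 CPM in control and 237, 227 and 237 CPM in PB. Control 3 also held the highest levels of the kidney-type cadherin Cdh16, with 14.8 CPM against 1.90 to 3.88 CPM in the other pools, and of the mesenchymal factor Tbx18, with 8.86 CPM against 0.641 to 1.73 CPM. All 7 mesonephric genes were measured above 0, with a summed level of 153 to 167 CPM in control and 144 to 164 CPM in PB. Most of this sum was Emx2, at 128 to 138 CPM in control and 124 to 137 CPM in PB. The part of adherent mesonephric tissue in the values of Dcn and Lum was not tested.

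**Figure D3:**
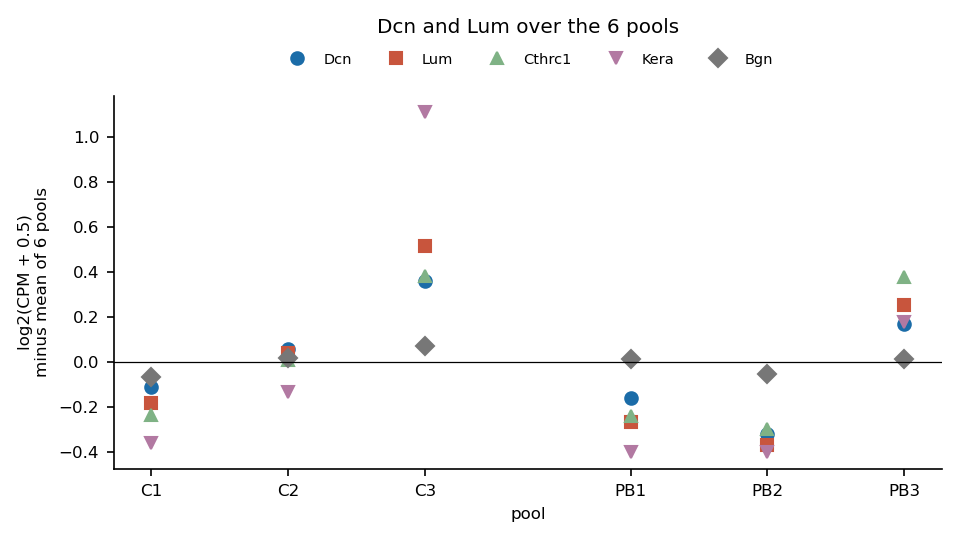
Difference of log2(CPM + 0.5) from the mean of the 6 pools (y axis) for Dcn, Lum, Cthrc1, Kera and Bgn in the control pools (C1 to C3) and the PB pools (PB1 to PB3), 1 point per gene and pool. Dcn, Lum, Cthrc1 and Kera had their highest points in C3 and PB3, where Lum was measured at 100.4 and 83.7 CPM, while Bgn stayed close to 0.

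Of 10 further small leucine-rich proteoglycans, all were tested and 0 were called in edgeR, with 4 estimates above 0, 6 below 0 and a median log2 FC of -0.02. The groups did not overlap for 1 of the 10, against 10.7% of all genes tested. An unadjusted p-value under 0.05 in edgeR was found for 1 of the 10, against 4.46%. In both cases this was Fmod (fibromodulin), which like lumican binds collagen fibrils. It was measured at 32.0, 33.2 and 29.4 CPM in control and at 36.3, 35.8 and 38.0 CPM in PB, with a log2 FC of 0.22 (SE 0.064, edgeR FDR = 0.888) and an unadjusted p-value under 0.05. Aspn (asporin) had a log2 FC of 0.51 (SE 0.35, edgeR FDR = 0.888), which rested on PB 3 with 9.64 CPM against 3.38 to 4.83 CPM in the other pools, and was 0.01 without that pool.

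The perivascular genes were Acta2, the actin of the contractile apparatus of smooth muscle and pericytes, and Rgs5, a regulator of G-protein signalling that marks pericytes. The promoters of both are shown because the pools separated for one and overlapped for the other. Such separation was found for 10.7% of all genes tested, and a link between these sequences and PB was not tested. The sequences are those of RefSeq in GRCm38.p6, from 250 bases before to 50 bases after the start site, 5′ to 3′ on the strand of the gene. Acta2 is at chr19:34255324-34255623 on the minus strand and Rgs5 at chr1:169655251-169655550 on the plus strand.
Acta2 promoter: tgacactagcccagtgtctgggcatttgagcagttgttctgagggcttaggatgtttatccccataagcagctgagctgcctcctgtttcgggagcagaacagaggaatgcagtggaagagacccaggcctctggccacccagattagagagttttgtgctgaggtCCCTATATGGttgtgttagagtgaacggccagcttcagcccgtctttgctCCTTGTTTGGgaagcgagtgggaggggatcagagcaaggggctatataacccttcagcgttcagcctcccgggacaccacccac
Rgs5 promoter: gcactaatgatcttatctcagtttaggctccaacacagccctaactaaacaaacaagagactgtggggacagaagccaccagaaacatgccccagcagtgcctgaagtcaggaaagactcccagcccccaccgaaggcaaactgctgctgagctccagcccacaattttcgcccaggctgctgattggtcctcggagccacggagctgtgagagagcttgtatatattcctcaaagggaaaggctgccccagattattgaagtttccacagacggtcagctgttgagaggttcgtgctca
Capitals mark CArG boxes with 1 other base in their core, the kind of element to which serum response factor binds in smooth muscle genes.

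Both strands were searched for the CArG box, the E-box CANNTG and TATAAA. The strict CArG box was in none of the 5 promoters of these genes that the RefSeq table holds, those of Acta2, Rgs5, Pdgfra, Nr2f2 and Tcf21, and was in 1.63% of all 32851 promoters of the same length. The form with 1 other base, which was searched after the strict form, occurred at 2 places in the Acta2 promoter, starting 84 and 34 bases before the start site, and in none of the other 4. It was present in 8.50% of all promoters. The E-box occurred in 4 of the 5 promoters, with none in that of Tcf21, and in 72.3% of all promoters. For Nr2f2, the promoter searched was that of NM_183261.3, with 13.7% of the counts of the gene. The promoter of its main transcript NM_009697.3, with 76.8%, was not searched. The exact sequence TATAAA occurred in none of the 5 and in 13.6% of all promoters. Looser forms, such as the TATATAA within the Acta2 sequence shown, which lies after the start site used here, were not searched.

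Acta2 was measured at 82.7, 87.4 and 84.7 CPM in control ovaries and at 93.7, 119.8 and 99.2 CPM in PB-exposed ovaries. The control pools lay close together, every PB pool lay above them, and PB 2 stood highest. Its log2 FC was 0.30 (SE 0.095, edgeR FDR = 0.888, from an unadjusted p-value of 0.0181), which corresponds to an FC of 1.23 (95% interval 1.05 to 1.44). Its interval was the only 1 of the 8 that did not include 0, but the gene did not pass the FDR threshold.

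Pool PB 2, with the most Acta2, also held the most RNA of skeletal muscle genes. The summed level of 5 skeletal muscle genes was 28.0, 128 and 65.3 CPM in control and 23.3, 441 and 62.5 CPM in PB, all 5 were highest in PB 2, and none was at 0. Acta1, the skeletal muscle actin, which is a close paralogue of Acta2 and could share reads with it, was measured at 17.5, 62.3 and 25.1 CPM in control and at 14.1, 169 and 35.9 CPM in PB. Without PB 2, the log2 FC of Acta2 was 0.18 (edgeR FDR = 0.260). PB 1, the pool with the lowest summed level of skeletal muscle genes, had more Acta2 than every control pool. The part of skeletal muscle RNA, or of reads shared with Acta1, in the level of Acta2 in PB 2 was not tested.

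**Figure D4:**
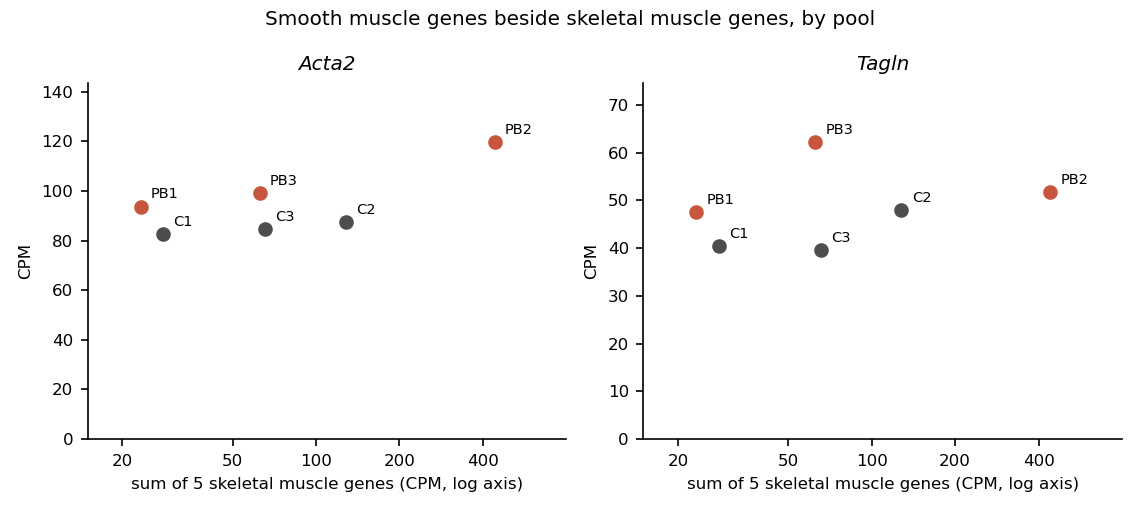
Level of Acta2 (left) and Tagln (right) in CPM (y axes from 0) against the summed level of 5 skeletal muscle genes (x axis, CPM, log scale), 1 point per pool, control grey and PB red. PB2 stood apart at 441 CPM of skeletal muscle genes with 119.8 CPM of Acta2, and PB1, at 23.3 CPM of skeletal muscle genes, had 93.7 CPM of Acta2.

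Rgs5 was measured at 13.5, 15.01 and 16.1 CPM in control and at 14.7, 13.3 and 18.3 CPM in PB. PB 3 was the highest pool and PB 2, the highest for Acta2, was the lowest. The log2 FC was 0.05 (SE 0.13, edgeR FDR = 0.948), with a 95% interval of the FC from 0.831 to 1.297, and its sign turned without control 1 or without PB 3. Per kilobase, Acta2 exceeded Rgs5 by a ratio of 9.81, 9.33 and 8.42 in control and 10.2, 14.5 and 8.65 in PB. The ratio was highest in PB 2 and overlapped between the groups. Rgs5 lies at chr1:169655501-169695813 on the plus strand and Acta2 at chr19:34240336-34255585 on the minus strand.

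Of 16 further mural and smooth muscle genes, all were tested and 0 were called in edgeR, with 8 estimates above 0, 8 below 0 and a median log2 FC of 0.01. Their groups overlapped in all 16, whereas 10.7% of all genes tested had groups without overlap. Tagln (transgelin), an actin-binding protein of smooth muscle, was measured at 40.4, 48.0 and 39.5 CPM in control and at 47.6, 51.7 and 62.3 CPM in PB. Its log2 FC was 0.34 (SE 0.12, edgeR FDR = 0.888) at an unadjusted p-value under 0.05, and unlike Acta2 it was highest in PB 3. Such a p-value was found for 1 of the 16, against 4.46% of all genes tested. Notch3, a receptor that maintains mural cells, was measured at 82.1, 76.8 and 93.4 CPM in control and at 68.7, 80.5 and 70.1 CPM in PB, with a log2 FC of -0.20 (SE 0.095, edgeR FDR = 0.888). The muscle genes Des and Tpm2, which are also expressed in skeletal muscle, were highest in PB 2, at 69.1 CPM against 28.3 to 40.8 CPM and at 86.2 CPM against 28.4 to 45.2 CPM in the other pools.

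Of 20 other stromal genes, all were tested and 0 were called in edgeR, with 8 estimates above 0, 12 below 0 and a median log2 FC of -0.06. None of them had an unadjusted p-value under 0.05, against 4.46% of all genes tested. Ptch1, the hedgehog receptor that is induced in stromal cells receiving the ligand, was measured at 47.0, 44.1 and 51.9 CPM in control and at 41.6, 45.0 and 41.0 CPM in PB, with a log2 FC of -0.17 (SE 0.076, edgeR FDR = 0.888). Its groups overlapped, as PB 2 lay within the control range.

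Rgs5 belongs to the R4 family of RGS genes, of which 8 others were listed. Of these 8, 7 passed the filter on low counts, and 0 were called in edgeR, with a median log2 FC of 0.03. Rgs2 was the most abundant of them and lay between 106 and 116 CPM in control and between 111 and 122 CPM in PB (log2 FC 0.04, SE 0.060, edgeR FDR = 0.919). Rgs18 had a log2 FC of -0.34 (SE 0.33, edgeR FDR = 0.890) at levels of 0.444 to 1.05 CPM. None of the 7 had an unadjusted p-value under 0.05, against 4.46% of all genes tested.

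**Figure D5:**
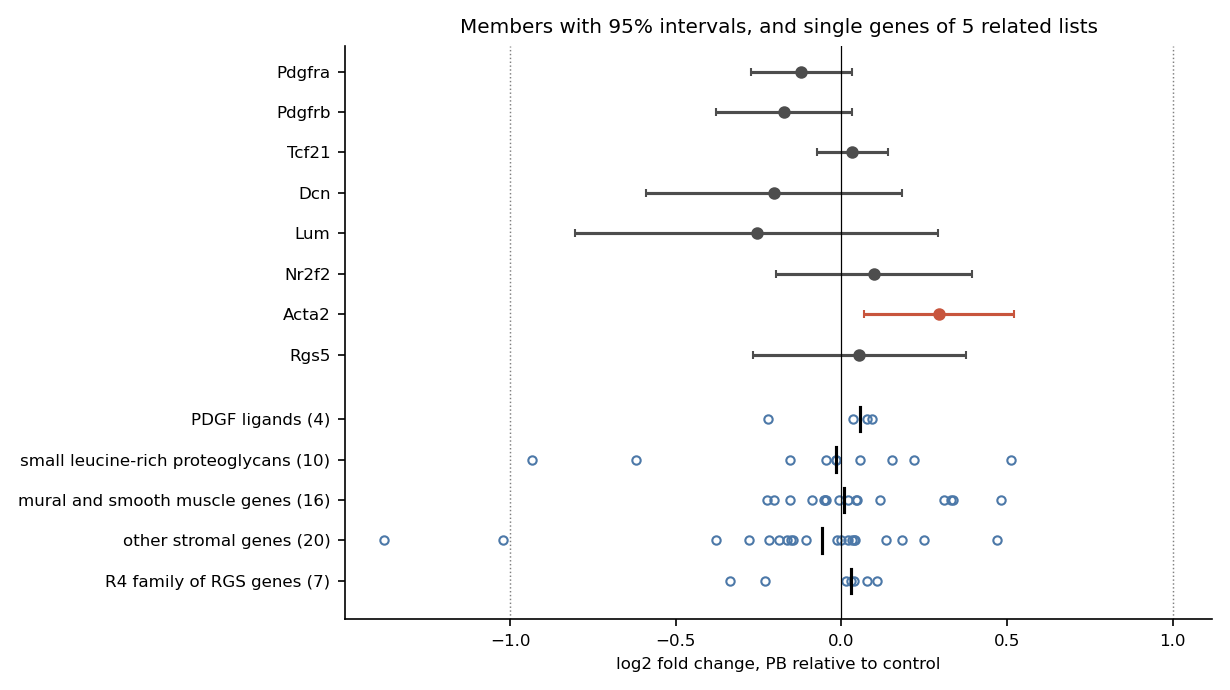
Log2 FC of PB relative to control (x axis) for the 8 genes with 95% intervals, and for each tested gene of 5 related lists (open circles, list median as a bar), with dotted lines at a 2-fold change. Acta2 (red) is the only member with an interval above 0, at 0.30, and the intervals of all 8 lie between the dotted lines.

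To show which genes followed each of these 8 across the pools, every gene with a mean of at least 5 CPM was compared by the root mean square (RMS) difference of log2(CPM + 0.5) over the 6 pools, after centring each gene on its own mean. Among 12187 genes, the nearest to Lum were Cthrc1, a secreted collagen triple helix protein, with an RMS difference of 0.083, and its neighbour Dcn with 0.092. Cthrc1 was measured at 8.25, 9.87 and 12.9 CPM in control and at 8.21, 7.87 and 12.9 CPM in PB. Lum ranked 4th among the genes nearest to Dcn, for which Fli1 and D630003M21Rik came first with RMS differences of 0.054 and 0.076.

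For the PDGF receptors, the nearest genes were Xxylt1 and Gramd1a for Pdgfra, with RMS differences of 0.028 and 0.029, and Tgfbr3 and Mrc2 for Pdgfrb, with 0.031 and 0.035. Pdgfrb ranked 472nd among the genes nearest to Pdgfra. Tcf21 was followed most closely by Bzw1 and B230219D22Rik, with RMS differences of 0.0053 and 0.0079, and Nr2f2 by Gltscr1 and Sncaip with 0.050 and 0.061. The nearest genes were Med6 and Zdbf2 for Acta2, with RMS differences of 0.034 and 0.040, and Zfp275 and Slc16a7 for Rgs5, with 0.047 and 0.049. A small RMS difference is easier to reach for a gene that varies little, and these are descriptions over the same 6 pools. Of the 28 pairs among the 8 genes, Pdgfra with Pdgfrb and Dcn with Lum were the most alike, with RMS differences of 0.069 and 0.092, against a median of 0.20 over all pairs and 0.25 for the perivascular pair of Acta2 and Rgs5.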

How the data were processed

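RNA-seq was performed on 3 control and 3 PB pools. The authors mapped reads with HISAT2 2.1.0 to the mm10 assembly, ran StringTie 1.3.5 guided by RefSeq to assemble and merge transcripts, and deposited raw read counts per transcript, which StringTie derives from the coverage and which are not normalized. A deposited table of the comparison of the authors with DESeq2 1.30.0 holds fold changes, p-values and normalized values per pool, of which only the gene names were used. The deposited annotation gave the positions and exon lengths.

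Counts were summed by gene name. The 1493 transcripts without a name, with 3.05% to 4.49% of the counts of a pool, were left out of the gene sums. Counts were tested with edgeR 4.0.16 and limma 3.58.1 in R 4.3.3, using TMM, filterByExpr (minimum count 10, minimum total 15) and the quasi-likelihood F-test with group as the only term, and p-values were adjusted over all genes or all transcripts tested. A gene was called at an FDR of at most 0.05 and an FC of at least 2. Levels per kilobase divided each transcript by its own exon length. The alternatives were DESeq2 size factors, the Wald test of DESeq2 1.42.0, no filter, a stricter filter, RefSeq transcripts only, StringTie loci, no minimum fold, the replicate number as a block, the length of the top transcript, and leaving out each pool.

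Named are the 8 genes, their transcripts with at least 5% of the counts of the gene or an unadjusted p-value under 0.05, the 2 genes with the smallest p-values of each related list, and the 2 nearest genes in pattern. A gene that this rule also names is not reported here. Pdgfc, Pdgfd, Kera, Epyc, Bgn, Cdh16, Emx2, Pax2, Tbx18, Egfl7, Acta1, Des, Tpm2, Hba-a1, Hba-a2 and the minor transcripts of Nr2f2 were named after their values were seen. The members and lists were chosen with earlier results of these data known.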

Additional observations from a re-analysis of the deposited data

How the results depend on the processing

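None of the 8 genes and none of their transcripts was called under any alternative, and the lowest FDR of a member was 0.260, for Acta2 without PB 2, and that of a transcript was 0.211, for NM_001083316.1 of Pdgfra with DESeq2. The number of genes called over the whole table moved from 3 to 11 with DESeq2's Wald test, to 8 with RefSeq transcripts only, to 5 with no minimum fold and to 0 with the replicate block, and ranged from 3 to 9 when a pool was left out. The number of transcripts called moved from 17 to 1172 with the Wald test, to 39 with the stricter filter and to 0 with the replicate block, and ranged from 0 to 19 when a pool was left out. The cause was not tested.

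The replicate numbers were not shown to pair the pools, and the correlations between deviations of pools from their group means did not settle this. Same-numbered pools correlated at 0.034, 0.23 and 0.098. Control 1 correlated more with PB 3 (0.15) than with PB 1, and the other pairs with different numbers correlated at -0.27 to -0.0026. Under the block, the unadjusted p-values were 0.0400 for Dcn and 0.0222 for Lum, with FDRs of 0.784, and 0 of the 8 genes were called.

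The estimates near 0 changed sign with single pools left out. The log2 FC of Nr2f2 then ranged from -0.0081 (without PB 2) to 0.20, and that of its transcript NM_009697.3 from -0.086 (without PB 2) to 0.070, with -0.0070 without control 2. Rgs5 ranged from -0.088 (without PB 3) to 0.15, with -0.012 without control 1, and its transcript NM_009063.4 from -0.089 to 0.16, with -0.011 without control 1. Rgs2 ranged from -0.010 (without PB 1) to 0.064, with -0.0078 without control 3, and NM_008809.2 of Pdgfrb from -0.069 (without control 2) to 0.42. With RefSeq transcripts only, Pdgfa was at -0.41. The members kept their sign in all 56 estimates under other settings, and in 45 of 48 estimates without 1 pool. Levels per kilobase moved by less than the spread between pools with the length of the top transcript, which placed Nr2f2 at 34.6 beside Lum at 34.5 CPM per kb.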

Other observations

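Several other cell types, of the ovary or of tissue that could adhere to it, were measured through lists of marker genes. Of these genes, 0 were called in edgeR's quasi-likelihood test. The surface epithelium list had estimates above 0 in 6 of 6 genes, with a median log2 FC of 0.23 and a summed level of 298 to 382 CPM in control and 356 to 442 CPM in PB. The 7 red blood cell genes all had estimates below 0, with a median of -0.30. The groups did not overlap for 1 of the 7, against 10.7% of all genes tested. This was Hba-a2, at 3995, 4356 and 4345 CPM in control and 3672, 2195 and 1585 CPM in PB (edgeR FDR = 0.888). Hba-a1, the other alpha-globin gene of the list, overlapped, at 6535, 9008 and 2064 CPM in control and 5421, 5528 and 5593 CPM in PB. The division of reads between these genes was not tested. The summed level of the red blood cell genes ranged from 15033 to 31933 CPM in control and from 18342 to 20105 CPM in PB. The macrophage genes had a median log2 FC of -0.07 with 4 of 6 estimates below 0, and the 5 tested of 7 steroidogenic and adrenal genes had a median of 0.04. The pregranulosa genes had a median of -0.01 and the germ cell genes of 0.00, with 7 tested in each list. The mesonephric genes had a median of -0.22, that of Pax2. It was measured at 0.906, 0.823 and 2.50 CPM in control and at 1.51, 1.31 and 0.791 CPM in PB. The skeletal muscle genes had a median of 1.10. Their summed level was 28.0, 128 and 65.3 CPM in control and 23.3, 441 and 62.5 CPM in PB, so that only PB 2 lay above the control range.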
